A study of Arabidopsis thaliana with 18 samples.

Results

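The transcript response of tocopherol-deficient leaves to the first 48 h of low temperature (LT) was measured on 6 Affymetrix ATH1 arrays, 3 of vte2 leaves after 48 h of LT treatment and 3 of vte2 leaves at 0 h, out of 18 arrays in the whole experiment. They were chosen by genotype and treatment time as labelled, and every one of the 22810 probe sets on the array was tested. The vte2 (vitamin E deficient 2) mutant of Arabidopsis thaliana lacks homogentisate phytyltransferase, the enzyme that commits homogentisate to tocopherol synthesis, in every cell of the plant. Plants grew for 4 weeks under 12 h of light at 22°C and darkness at 18°C. The 48 h group was then moved to 7°C with the same day length, and the 0 h group was not. The 9th to 11th rosette leaves of 3 plants were pooled for each array and were taken 1 h into the light, so that the plants of both groups were sampled at the same hour but the 48 h plants were older. Each array came from plants of its own, which the study treats as a biological replicate. The wild type Col, treated in the same way and with 3 arrays at each time, is used below only to show where the response of vte2 differed.

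Tocopherols are lipid-soluble antioxidants of the plastid membranes. Chilling sets off a well-known sequence in Arabidopsis leaves: transcription factors of the cold response switch on hydrophilic cold-regulated proteins that stabilise membranes, photosynthesis slows more than light capture does, sugars collect and anthocyanins are made. The question put to these arrays was what mutant leaves do early in the cold. In mature vte2 leaves the cold is known to bring callose deposits in the phloem transfer cells and reduced sugar export.

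The deposited values are log2 levels, on which 1 unit is a 2-fold difference, and the levels of different genes on this scale are not comparable with each other. The 48 h arrays were close to each other, with correlations across probe sets of 0.993 to 0.996 and a median SD of 0.125. The 0 h arrays were less so, with a median SD of 0.235 and correlations of 0.971 between replicates 1 and 2 but of 0.940 and 0.936 between these and replicate 3. Replicate 3 at 0 h was more than 2-fold away from the mean of the other replicates on 2501 probe sets, 1375 of them higher and 1126 lower, against 1384 for replicate 1 and 1529 for replicate 2 by the same measure, in which replicate 3 is one of the others, and at most 34 for any 48 h array. For 34.4% of the 1899 probe sets that were over 2-fold lower at 48 h than in 0 h replicates 1 and 2, and for 22.3% of the 2388 that were over 2-fold higher, replicate 3 at 0 h lay nearer to the 48 h mean than to the other 0 h arrays. Changes are therefore given with all arrays and, where it matters, without that array. The 3′ minus 5′ difference of the actin control probe sets, a sign of RNA integrity, was 3.32, 3.24 and 3.13 (log2) on the 48 h arrays, against 2.87, 3.01 and 3.09 on the 0 h arrays, and that of GAPDH was 0.66, 0.65 and 0.11 on the 48 h arrays, against 1.01, 0.83 and 0.38 on the 0 h arrays. Their part in the results was not tested.

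Only 4 of the 34 cell type markers set out for checking the tissue could be named. RCA, the activase of Rubisco and a marker of leaf mesophyll, stood at 12.5 to 12.8 on the 48 h arrays and at 13.3 to 13.6 on the 0 h arrays, near the top of the scale. FAMA, a guard cell factor, was between 5.31 and 5.63 at 48 h and between 5.47 and 6.26 at 0 h. The phloem sugar efflux carrier SWEET11 and the trichome factor TRY were highest on 0 h replicate 3. TRY was at 5.07, 4.91 and 4.94 on the 48 h arrays, against 5.93, 4.92 and 8.80 on the 0 h arrays. With whole leaves, fewer cells of a type and less RNA per cell cannot be told apart.

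After 48 h of LT treatment 7836 probe sets (34.4% of all) had changed in vte2 leaves at an adjusted p under 0.05 in limma. With the values as deposited, increases and decreases were equally common, with 3920 probe sets higher (17.2%) and 3916 lower (17.2%). The balance moved with the normalization, to 3556 higher and 5071 lower after median centring and to 4128 and 3647 after cyclic loess. In the deposited values the largest changes were increases. Among calls of over 2-fold, 2129 were higher (9.33%) and 1617 lower (7.09%), and among those of over 16-fold 91 were higher (0.399%) and 17 lower (0.0745%). The median change of all probe sets was -0.06 (log2). The 48 h and 0 h arrays did not overlap for 9464 probe sets (41.5%), of which 4382 had all 48 h arrays higher (19.2%) and 5082 all lower (22.3%), and which included 7400 of the called ones. Of the 13355 genes with a name, 2098 were higher (15.7%) and 2150 lower (16.1%), and the counts of gene groups that follow are to be read beside these shares. Some groups were formed after values had been seen. They include plastid-encoded genes, NDH subunits, RNA polymerase subunits, glutamate receptor-like channels and branched-chain amino acid breakdown. Autophagy, beta-glucosidases, P450 enzymes, RALF-like peptides and IQ-domain proteins were also formed then. The same holds for SWEET transporters, serine carboxypeptidase-like proteins and subtilases. It also holds for trichome birefringence-like proteins, glycosyl hydrolase family 9 and low-molecular-weight cysteine-rich proteins. The groups in the previous 2 sentences appear as groups only in the plot of shares called.

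**Figure D1:**
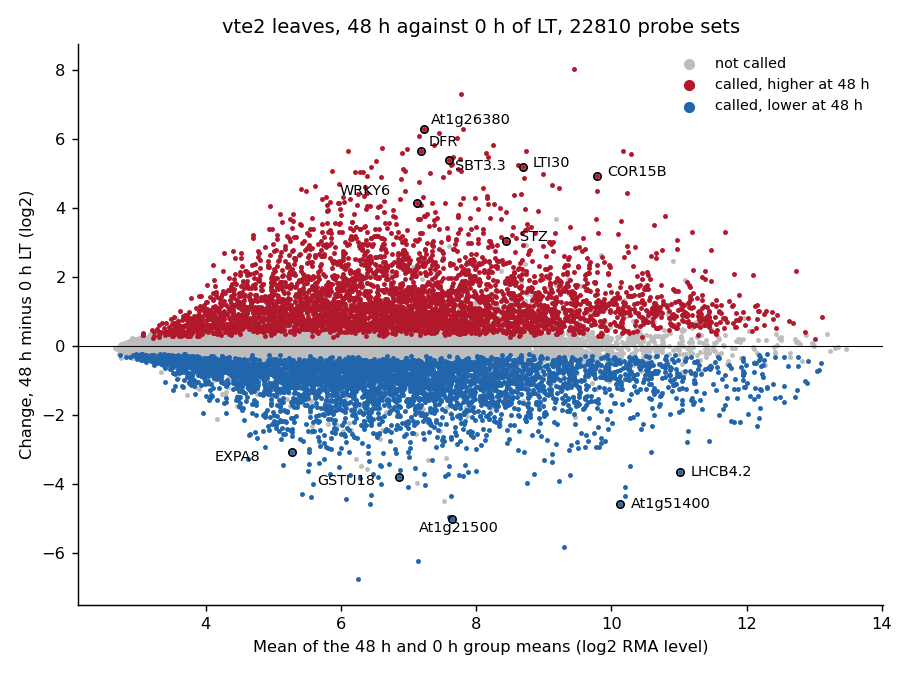
Change of each of 22810 probe sets in vte2 leaves (vertical axis, 48 h minus 0 h of LT, log2) against its mean level over both groups (horizontal axis, log2), with called probe sets in red (3920 higher) and blue (3916 lower) and the rest in grey. Rises reach further from 0 than falls, with 91 calls of over 16-fold above and 17 below.

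Cold-regulated proteins were among the strongest increases. Of the 7 members of this list that could be named, 6 were higher at 48 h, none was lower, and the median change was 3.20 (log2). COR15A and COR15B are chloroplast proteins that protect membranes during freezing. COR15B stood at 12.3, 12.3 and 12.2 on the 48 h arrays, against 8.50, 7.72 and 5.78 on the 0 h arrays. COR15A stood at 13.4, 13.3 and 13.3 at 48 h, against 11.3, 10.7 and 8.15 at 0 h. The groups did not overlap for either gene, the 48 h arrays lay close together, and replicate 3 was the lowest of the 0 h arrays. COR15B rose by 4.92 (log2, SE 0.76, adjusted p = 0.000104), 30.3-fold, and by 4.14 without 0 h replicate 3. COR15A rose by 3.31 (SE 0.88, adjusted p = 0.008) and by 2.37 without that array.

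LTI30, a dehydrin, gave 11.4, 11.3 and 11.2 at 48 h, against 6.18, 7.81 and 4.28 at 0 h. It rose by 5.19 (SE 1.12, adjusted p = 0.00182), or by 4.28 without 0 h replicate 3. COR27, a small regulator that links cold and the clock, had 6.36, 6.24 and 6.29 at 48 h, against 2.94, 2.88 and 3.46 at 0 h, so that here replicate 3 was the highest of the 0 h arrays. COR27 rose by 3.20 (SE 0.23, adjusted p = 6.16e-08). The remaining called members were At4g33980 (0.89) and LEA4-5, a late embryogenesis abundant protein (0.74), and the call of LEA4-5 was lost without 48 h replicate 1, 48 h replicate 2 or 0 h replicate 2. COR47, another dehydrin, measured 12.0, 12.2 and 12.0 at 48 h, against 10.6, 11.1 and 8.66 at 0 h, a change of 1.92 (SE 0.76) that did not pass the test (adjusted p = 0.064). Its arrays did not overlap either, but the 0 h arrays spanned more than the change.

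Genes of flavonoid and anthocyanin synthesis rose together. Of 5 named members 4 were higher and none lower, with a median change of 3.78. DFR, the dihydroflavonol reductase that leads into anthocyanins, had 9.96, 9.85 and 10.22 at 48 h, against 3.849, 4.261 and 5.003 at 0 h. Its 0 h arrays were near the bottom of the scale, and it rose by 5.64 (SE 0.28, adjusted p = 2.34e-09), 49.9-fold. UF3GT, a sugar transferase of anthocyanins, stood at 9.37, 9.40 and 9.23 at 48 h, against 4.87, 5.54 and 5.89 at 0 h, and rose by 3.90 (SE 0.26, adjusted p = 2.97e-08). The anthocyanin acyltransferase AT5MAT rose by 2.78 (SE 0.16) and At4g14090 by 3.77 (SE 0.49). The fifth member, the flavonoid 3-O-glucosyltransferase UGT78D2, measured 10.25, 10.07 and 10.03 at 48 h, against 7.41, 6.64 and 10.9 at 0 h. Replicate 3 alone overlapped the 48 h arrays, and the change of 1.80 did not pass the test (adjusted p = 0.167), whereas without that array it was 3.09 and was called.

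Several regulators and signalling proteins rose as well. STZ, a zinc finger repressor also known as ZAT10 and the one named member of the cold-response transcription factors, was at 10.04, 10.02 and 9.82 at 48 h, against 6.89, 7.09 and 6.81 at 0 h. It rose by 3.03 (SE 0.55, adjusted p = 0.000435). WRKY6, a factor of senescence and defence, stood at 9.27, 9.21 and 9.09 at 48 h, against 4.99, 5.18 and 5.01 at 0 h, and rose by 4.13 (SE 0.26, adjusted p = 1.36e-08), 17.5-fold. In neither gene did any 0 h array, replicate 3 included, come near the 48 h arrays. Of the 6 WRKY factors named, 3 were higher and none lower. WRKY53, which promotes leaf senescence, was at 8.03, 7.76 and 7.58 at 48 h, against 5.05, 6.14 and 6.86 at 0 h, and rose by 1.77 (SE 0.35).

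Of 7 calmodulin-like proteins, which sense calcium, 3 were higher and none lower. CML37 rose by 4.26 (SE 0.62, adjusted p = 6.26e-05), CML42 by 2.92 (SE 0.31) and CML41 by 2.63 (SE 0.24). Of 8 glutamate receptor-like channels, 4 were higher and 1 lower, and the largest rise was that of ATGLR1.2 at 3.96 (SE 0.36, adjusted p = 5.16e-07), on arrays at 8.11, 8.13 and 7.69 at 48 h, against 4.08, 3.98 and 3.96 at 0 h. The one that fell was GLR3.3, by 0.68 (SE 0.15), a channel of long-distance wound signalling.

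Among defence genes, the subtilase SBT3.3, a protease known from immune priming, was at 10.2, 10.2 and 10.5 at 48 h, against 4.80, 5.03 and 4.86 at 0 h. It rose by 5.39 (SE 0.24, adjusted p = 9.25e-10), 42.0-fold, with or without 0 h replicate 3 (5.37). The receptor-like kinase B120 rose by 5.03 (SE 0.43, adjusted p = 3.34e-07). Of 7 plant defensins 3 were higher and none lower, or 3 and 1 without 0 h replicate 3, where PDF1.4 was called at -0.97. PDF1.2, the usual marker of jasmonate and ethylene signalling, was at 7.45, 7.32 and 7.35 at 48 h, against 4.18, 5.18 and 5.16 at 0 h, and rose by 2.54 (SE 0.44, adjusted p = 0.000302). Its close relative PDF1.2b rose by 1.10, and cross-hybridisation between such copies cannot be told apart from change in each. SAG101, a lipase-like partner of immune receptors, rose by 1.93 (SE 0.31).

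**Figure D2:**
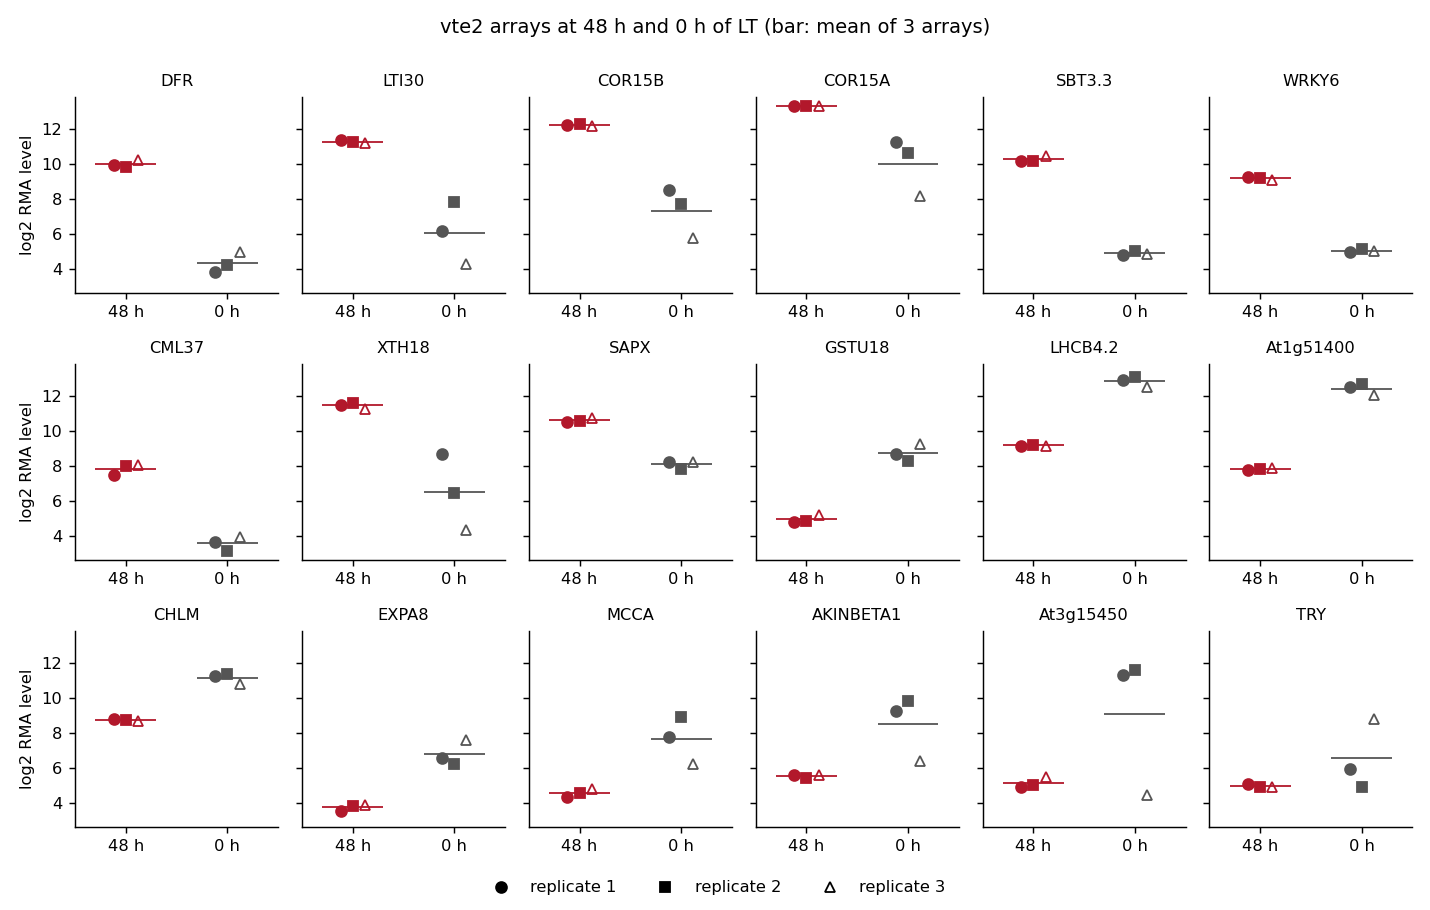
Log2 RMA level of 18 genes on each vte2 array, 48 h of LT on the left (red) and 0 h on the right (grey), with a marker for each replicate and a bar at the mean of 3 arrays. The 48 h arrays lie close together. At 0 h replicate 3 (open triangle) departs from replicates 1 and 2 for genes such as COR15B, AKINBETA1, At3g15450 and TRY. It departs less for DFR and LHCB4.2 and hardly for SBT3.3 or WRKY6, while for XTH18 all 3 arrays at 0 h are spread.

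Nuclear genes of the photosynthetic apparatus fell. All 9 photosystem and light-harvesting proteins that could be named were lower at 48 h, by 0.91 to 4.60 (median -1.53), and each of these calls was kept when any 1 array was left out. Their mean level was 10.2, 10.3 and 10.2 on the 48 h arrays, against 12.4, 12.5 and 12.2 on the 0 h arrays, so 0 h replicate 3 lay only slightly lower here. At1g51400, the 5 kD protein of photosystem II, was at 7.78, 7.84 and 7.88 at 48 h, against 12.5, 12.7 and 12.1 at 0 h. It fell by 4.60 (SE 0.15, adjusted p = 8.35e-11), 24.2-fold.

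The minor antenna protein of photosystem II, CP29, has 3 gene copies, which fell by different amounts. LHCB4.2 stood at 9.18, 9.20 and 9.17 at 48 h, against 12.9, 13.1 and 12.5 at 0 h, and fell by 3.67 (SE 0.15, adjusted p = 3.73e-10). LHCB4.3 stood at 7.90, 7.85 and 7.51 at 48 h, against 10.6, 10.4 and 10.8 at 0 h, and fell by 2.85 (SE 0.20). LHCB4.1 stood at 11.4, 11.2 and 11.4 at 48 h, against 12.9, 12.9 and 12.8 at 0 h, and fell by 1.53 (SE 0.12). The groups were apart for all 3 copies, and the intervals of 1 SE around the falls did not meet, although this difference between copies was not tested. PSB27, an assembly factor of photosystem II, fell by 1.63, PSAN and PSAE-1 of photosystem I by 1.52 and 1.17, and PSBW and PSBY of photosystem II by 1.11 and 0.91. At1g51400, LHCB4.2 and PSB27 are among the genes the study chose on these same arrays for lower levels in vte2 than in Col at 48 h, so their fall is no independent evidence of the direction of the list.

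Other nuclear genes for plastid functions were lower as well. All 3 named Calvin cycle genes fell, namely PRK, which makes the CO2 acceptor, by 1.07 (SE 0.16), SBPASE, a bisphosphatase of the regeneration phase, by 0.84 (SE 0.13) and RCA by 0.74 (SE 0.11). Of 8 nuclear-encoded subunits or assembly factors of the plastid NDH complex, which feeds electrons back around photosystem I, 4 fell and none rose, with NdhS at -1.81 (SE 0.15) and NdhN at -1.79 (SE 0.16). TRXF2, the thioredoxin that activates Calvin cycle enzymes in the light, fell by 2.43 (SE 0.16).

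Of 6 genes of chlorophyll synthesis, 4 fell and 1 rose. CHLM, which methylates magnesium protoporphyrin, was at 8.79, 8.73 and 8.70 at 48 h, against 11.2, 11.4 and 10.8 at 0 h, and fell by 2.40 (SE 0.12, adjusted p = 2.25e-09). The uroporphyrinogen decarboxylases HEME1 and HEME2 fell by 2.10 (SE 0.23) and 1.37 (SE 0.20), and the earlier enzyme HEMB1 by 1.09 (SE 0.12). GSA1, the aminotransferase that makes the first precursor, was 0.39 higher (adjusted p = 0.0469), and this call was lost when any 1 of the 6 vte2 arrays other than 0 h replicate 3 was left out. PORB, a light-dependent reductase of the pathway, stood at 9.13, 9.11 and 9.06 at 48 h, against 10.3, 11.2 and 8.22 at 0 h, where replicate 3 lay below the 48 h arrays and the others above. Its change of -0.79 was not called (adjusted p = 0.397).

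**Figure D3:**
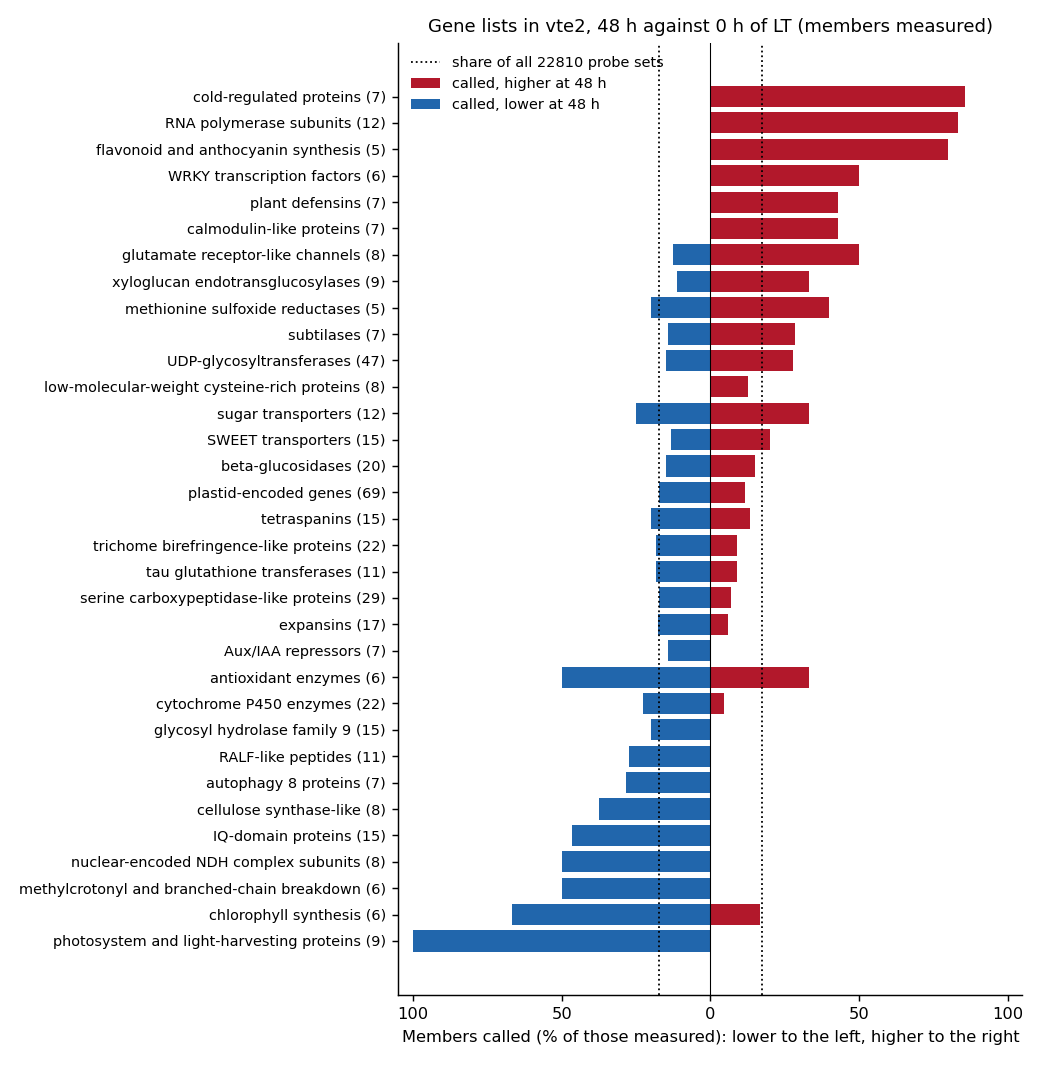
Share of the measured members of each gene list with at least 5 members that was called higher (red, to the right) or lower (blue, to the left) in vte2 leaves at 48 h against 0 h of LT, with the share of all probe sets called in each direction (17.2%) as dotted lines and the number of members measured in brackets. Cold-regulated proteins (6 of 7 higher) stand at the top and photosystem proteins (9 of 9 lower) at the bottom. Some of the lists, named in the text, were formed after values had been seen.

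Genes encoded in the plastid genome were called in both directions. Of 69 named, 8 were higher and 12 lower, or 5 and 5 with only the vte2 arrays of both times in the fit. With all arrays 29.0% of them were called, no more than the 34.4% of all probe sets. The median change was -0.33, against -1.53 for the nuclear photosystem list, a difference that was not tested, and 53 of the 69 lay below 0, called or not, among them all 5 of photosystem I and all 6 of the ATP synthase. The 8 increases were of uneven size. petD, a subunit of the cytochrome b6f complex, was at 8.43, 8.21 and 8.51 at 48 h, against 5.18, 4.98 and 5.54 at 0 h. It rose by 3.15 (SE 0.13, adjusted p = 6.17e-10), and petN, of the same complex, rose by 2.42 (SE 0.29). rps14, a protein of the small ribosomal subunit, had 8.63, 8.52 and 8.79 at 48 h, against 4.85, 4.20 and 6.83 at 0 h, and rose by 3.35 (SE 0.45, adjusted p = 2.88e-05). rbcL, the large subunit of Rubisco, stood at 11.7, 11.1 and 11.4 at 48 h, against 9.69, 9.40 and 9.01 at 0 h, and rose by 2.02 (SE 0.33, adjusted p = 0.000177), while nuclear PRK, SBPASE and RCA fell. Labelling followed the standard Affymetrix protocol, and how well it represents plastid as against nuclear transcripts was not tested. Of the 10 plastid NDH subunits 3 fell and 1 rose. ndhG fell by 1.51 (SE 0.35) and ndhD by 1.25 (SE 0.30), and ndhF rose by 1.93 (SE 0.38). None of the 15 plastid photosystem II genes was called in limma (2 with an unadjusted p under 0.05), and their changes lay between -0.76 and 0.97 with a median of -0.04.

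One 48 h array weighed on these values. Replicate 1 at 48 h was the highest of the 48 h arrays for 54 of the 69 plastid genes (78.3%), against 34.7% of all probe sets, and the mean level of the 69 genes was 10.4, 9.69 and 9.86 on the 48 h arrays, against 10.1, 10.2 and 10.1 on the 0 h arrays. Without it, left out after seeing the data, 5 were higher and 23 lower, with a median change of -0.52. Of the 20 calls, 8 were kept when each array in turn was left out, those of rps14, petD, petN, rbcL, ndhF, ndhG, ndhD and psaI. In Col the median change of the same genes was 0.27. Their mean level at 48 h was 9.85, 9.93 and 9.79 on the Col arrays, between those of vte2, while at 0 h it was 9.21, 9.31 and 9.58 on the Col arrays, below all 3 of vte2. The difference of the changes between the genotypes was called for none of the 69 in limma, with 22 at an unadjusted p under 0.05. The 15 ribosomal protein genes that a symbol list picked out were all plastid genes and are counted here.

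**Figure D4:**
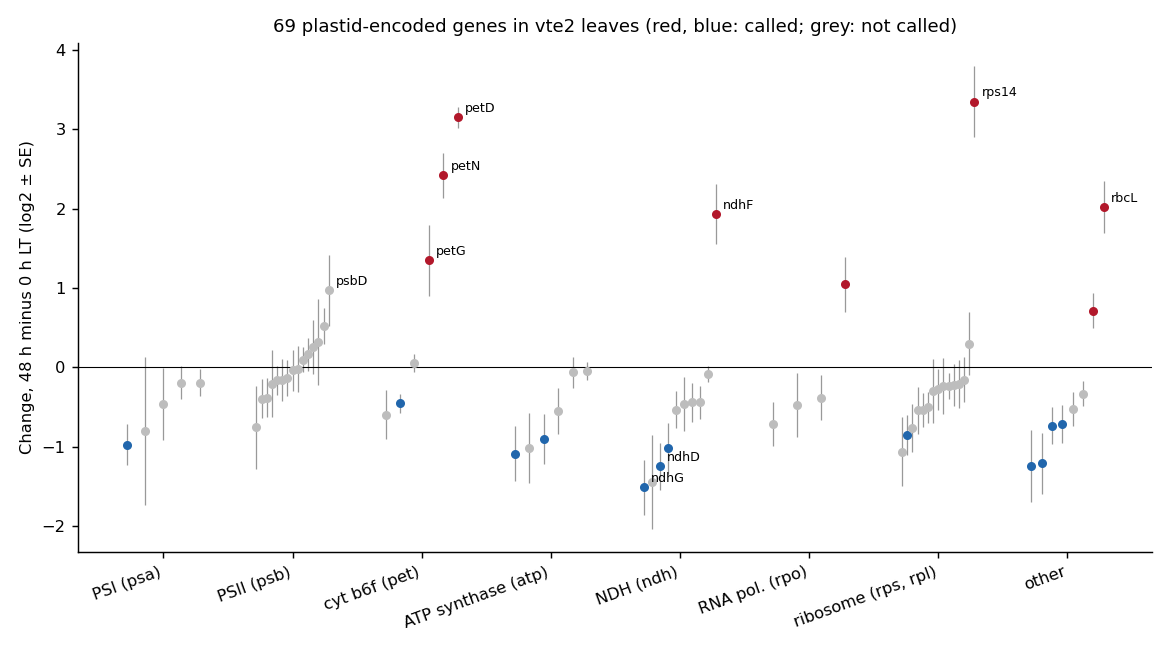
Change of 69 plastid-encoded genes in vte2 leaves (vertical axis, 48 h minus 0 h of LT, log2 with 1 SE from the fit), grouped along the horizontal axis by the complex they belong to, with called genes in red or blue and others in grey. A few transcripts (rps14, petD, petN, rbcL, ndhF) lie well above 0 while the median is -0.33.

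Antioxidant genes moved in both directions. Of 6 named, 2 rose and 3 fell, or 1 and 2 with only the vte2 arrays of both times in the fit. The 2 plastid ascorbate peroxidases, which remove hydrogen peroxide, went opposite ways. SAPX, the stromal enzyme, was at 10.5, 10.6 and 10.7 at 48 h, against 8.21, 7.85 and 8.25 at 0 h, and rose by 2.51 (SE 0.13, adjusted p = 3.62e-09). TAPX, the thylakoid enzyme, was at 8.73, 8.60 and 8.57 at 48 h, against 10.3, 10.3 and 10.2 at 0 h, and fell by 1.62 (SE 0.11, adjusted p = 2.26e-08). The groups did not overlap for either. GR1, a glutathione reductase, rose by 0.96 (SE 0.25). VTC4, a phosphatase of ascorbate synthesis, fell by 2.02 (SE 0.16), and At3g11630 by 0.45 (SE 0.10).

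Of the tocopherol pathway 2 genes were named. At1g74470, the geranylgeranyl reductase that supplies the phytyl tail of both tocopherols and chlorophyll, fell by 1.24 (SE 0.10, adjusted p = 1.57e-07), with 11.6, 11.6 and 11.5 at 48 h, against 12.7, 12.9 and 12.8 at 0 h. NDC1, a quinone reductase of the plastoglobules, rose by 0.46 (SE 0.10, adjusted p = 0.00205). Of 5 methionine sulfoxide reductases, which repair oxidised methionine, 2 rose and 1 fell, or 1 rose and 2 fell without 0 h replicate 3. The call of MSRB3 at 0.43 was lost without 48 h replicate 2, 48 h replicate 3, 0 h replicate 1 or 0 h replicate 3. MSRB9 rose by 2.66 (SE 0.48), and MSRB5, which the study chose on these arrays as lower in vte2 at 48 h, fell by 1.40 (SE 0.30). The tau class glutathione transferases, often induced by oxidised lipids and xenobiotics, had 1 of 11 members higher and 2 lower, or 3 higher and 2 lower without 0 h replicate 3. With all arrays 27.3% of them were called, no more than the 34.4% of all probe sets. GSTU18 was at 4.79, 4.88 and 5.21 at 48 h, against 8.68, 8.32 and 9.26 at 0 h, and fell by 3.79 (SE 0.24, adjusted p = 1.67e-08), 13.9-fold. GSTU25, which the study chose on these arrays as higher in vte2 at 48 h, rose by 1.61 (SE 0.20).

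Sugar transporters were divided. Of 12 named, 4 rose and 3 fell, or 2 and 2 with only the vte2 arrays of both times in the fit. SWEET13, an efflux carrier of sucrose, was at 8.22, 8.07 and 8.21 at 48 h, against 5.42, 4.59 and 6.93 at 0 h, and rose by 2.52 (SE 0.45, adjusted p = 0.000362). The vacuolar carriers SWEET17 and SWEET16 fell, SWEET17 by 2.09 (SE 0.26, adjusted p = 1.33e-05) and SWEET16 by 1.43 (SE 0.42). The call of SWEET16 was lost without 0 h replicate 1 or 0 h replicate 2, and 0 h replicate 3 at 3.52 lay next to the 48 h arrays at 3.43, 3.24 and 3.43. SAG29, which is SWEET15 and rises in senescence, stood at 4.46, 5.13 and 5.15 at 48 h, against 4.03, 3.77 and 4.28 at 0 h, a rise of 0.89 (SE 0.17). Of 2 named genes of starch breakdown, the dikinase PWD rose by 1.92 (SE 0.55), a call lost without 0 h replicate 1 or 0 h replicate 2, and the disproportionating enzyme DPE1 fell by 1.08 (SE 0.30). The starch branching enzyme SBE2.2 fell by 1.19 (SE 0.14).

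Some genes of energy sensing, amino acid breakdown and autophagy were lower at 48 h. AKINBETA1, a subunit of the SnRK1 energy sensor, was at 5.63, 5.41 and 5.61 at 48 h, against 9.28, 9.82 and 6.39 at 0 h. It fell by 2.95 (SE 0.71, adjusted p = 0.004), or by 4.00 without 0 h replicate 3, and was not called with only the vte2 arrays of both times in the fit. MCCA, a subunit of methylcrotonyl-CoA carboxylase in leucine breakdown, fell by 3.07 (SE 0.52, adjusted p = 0.000239), with 4.35, 4.57 and 4.82 at 48 h, against 7.79, 8.93 and 6.23 at 0 h. Its partner subunit MCCB fell by 1.18 (SE 0.16) and ETFQO, which takes up the electrons of this pathway, by 1.85 (SE 0.19). With these, 3 of 6 members fell and none rose. Of 7 ATG8 proteins, which coat autophagosomes, ATG8F and ATG8C fell by 1.97 (SE 0.23) and 1.46 (SE 0.15). No other ATG8 member was called with all arrays, and the share called, 28.6%, was no more than the 34.4% of all probe sets. Without 0 h replicate 3 there were 4 lower and 1 higher.

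Genes of cell walls and growth changed in both directions, and most members of these lists were not called. EXPA8, an expansin that loosens walls, was at 3.53, 3.85 and 3.86 at 48 h, against 6.59, 6.25 and 7.62 at 0 h, and fell by 3.08 (SE 0.38, adjusted p = 1.31e-05). Of 17 expansins 3 fell and 1 rose, or 4 fell and 2 rose without 0 h replicate 3, and the riser with all arrays was EXPA9 by 1.80 (SE 0.24). With all arrays 23.5% of the expansins were called, no more than the 34.4% of all probe sets. XTH18, a xyloglucan endotransglucosylase, was at 11.5, 11.6 and 11.3 at 48 h, against 8.70, 6.44 and 4.36 at 0 h. The 3 arrays at 0 h were spread over more than 16-fold, and XTH18 rose by 4.97 (SE 1.04, adjusted p = 0.00147), or by 3.90 without replicate 3. XTH19 rose by 3.40 (SE 0.73). Of the 9 genes of this family that were named 3 rose and 1 fell, or 3 and none without 0 h replicate 3, and 2 and none with only the vte2 arrays of both times in the fit. Of 8 cellulose synthase-like genes 3 fell and none rose, and the call of CSLA03, a glucomannan synthase at -2.26 (SE 0.65), was lost without 48 h replicate 1 or 0 h replicate 1. At1g04680, a pectate lyase, was at 7.16, 7.20 and 7.06 at 48 h, against 9.98, 9.83 and 9.70 at 0 h, and fell by 2.70 (SE 0.09, adjusted p = 1.12e-10).

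Of 11 RALF-like peptides, signals that alkalinise the wall space, 3 fell and none rose, with RALFL24 at -2.17 (SE 0.16) and RALFL34 at -2.06 (SE 0.10). With all arrays 27.3% of these peptides were called, no more than the 34.4% of all probe sets, and their median change was -0.09. Of 15 IQ-domain proteins, which bind calmodulin at microtubules, 7 fell and none rose, or 6 without 0 h replicate 3. IQD30 was at 4.51, 4.72 and 4.45 at 48 h, against 6.42, 6.01 and 5.90 at 0 h, and fell by 1.55 (SE 0.14, adjusted p = 5.36e-07). The cytokinin-induced repressor ARR15 fell by 2.14 (SE 0.39, adjusted p = 0.000473).

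Subunits of the nuclear RNA polymerases rose. Of 12 named, 10 were higher and none lower, with a median change of 1.32, and all 10 calls were kept when any 1 array was left out. NRPA1, the largest subunit of polymerase I, which transcribes ribosomal RNA, was at 6.92, 7.03 and 7.28 at 48 h, against 4.59, 4.53 and 4.93 at 0 h. NRPA1 rose by 2.39 (SE 0.16, adjusted p = 2.06e-08) and NRPA2, the other large subunit, by 1.99 (SE 0.13). Both large subunits of polymerase III were called, NRPC2 at 1.80 (SE 0.15) and NRPC1 at 1.28 (SE 0.19), and the small subunit NRPB12 at 1.92 (SE 0.16).

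Larger families held both directions. Of 47 UDP-glycosyltransferases, which attach sugars to hormones and secondary metabolites, 13 rose and 7 fell, or 17 and 7 without 0 h replicate 3. UGT73B5 rose by 3.42 (SE 0.32), UGT76B1, which acts on an immune regulator, by 3.31 (SE 0.46) and UGT73B4 by 3.15 (SE 0.38), and UGT88A1 fell by 1.32 (SE 0.35). Of 20 beta-glucosidases 3 rose and 3 fell, or 4 and 4 without 0 h replicate 3. With all arrays 30% of them were called, no more than the 34.4% of all probe sets. BGLU25 rose by 3.23 (SE 0.33) and BGLU40 fell by 2.69 (SE 0.25), and the groups overlapped for neither. Of 22 cytochrome P450 enzymes 1 rose, CYP71B23 by 2.16 (SE 0.27), and 5 fell, or 2 and 3 without 0 h replicate 3, where CYP71B29 and CYP71B34 lost their calls. The share of P450 enzymes called with all arrays, 27.3%, was also below 34.4%.

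Over all probe sets, named or not, the largest rise was 258-fold and the largest fall 109-fold. Among named genes whose arrays did not overlap and which were called with and without 0 h replicate 3, many of the largest changes were in genes known only by their locus. At1g26380 stood at 10.61, 10.49 and 10.02 at 48 h, against 3.60, 4.45 and 4.24 at 0 h, and rose by 6.28 (SE 0.42, adjusted p = 2.74e-08), 77.7-fold. At2g43620 rose by 6.02 (SE 0.41), At4g39670 by 5.82 (SE 0.53) and At3g48640 by 5.81 (SE 0.39). At2g23910 had one of the tightest rises, with 8.28, 8.51 and 8.42 at 48 h, against 3.14, 3.29 and 3.57 at 0 h, a change of 5.07 (SE 0.16, adjusted p = 8.35e-11). At the other end, At1g21500 stood at 5.12, 5.25 and 5.07 at 48 h, against 10.4, 10.7 and 9.32 at 0 h, and fell by 5.01 (SE 0.32, adjusted p = 1.72e-08), 32.1-fold. At4g33666 fell by 4.96 (SE 0.38) and At2g34620 by 4.36 (SE 0.33). At3g06070 fell by 4.58, with an SE of 1.19, and its 0 h arrays were at 11.0, 9.46 and 5.73.

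Leaving out 0 h replicate 3 raised the number of changed probe sets to 8442 (37%), with 4142 higher (18.2%) and 4300 lower (18.9%). Of these, 7040 were also called with all arrays, in the same direction, and none in the opposite one. A further 1402 were called only without it, 880 of them lower, and 796 only with it. In the 4 genes that follow, replicate 3 at 0 h lay nearer to the 48 h arrays than to the other 0 h arrays. At3g15450 was at 4.94, 5.02 and 5.46 at 48 h, against 11.3, 11.6 and 4.44 at 0 h. Its change of -3.97 (SE 1.75, adjusted p = 0.0964) was not called with all arrays, while without replicate 3 it was -6.31 and called. At5g61590, a wax repressor also known as DEWAX, stood at 7.00, 6.98 and 6.95 at 48 h, against 11.2, 10.7 and 4.30 at 0 h, so that replicate 3 lay below the 48 h arrays and the other 0 h arrays above them. In the other direction, the light-signalling factor HYH was at 8.98, 9.08 and 9.09 at 48 h, against 5.39, 3.83 and 9.24 at 0 h. It changed by 2.9 (adjusted p = 0.0592) with all arrays and by 4.44, called, without replicate 3. At5g15950 was likewise at 11.0, 11.2 and 11.3 at 48 h, against 6.82, 6.88 and 11.9 at 0 h. The same-numbered array of Col at 0 h deviated in the same way, with a correlation of 0.791 across probe sets, which are not independent replicates.

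**Figure D5:**
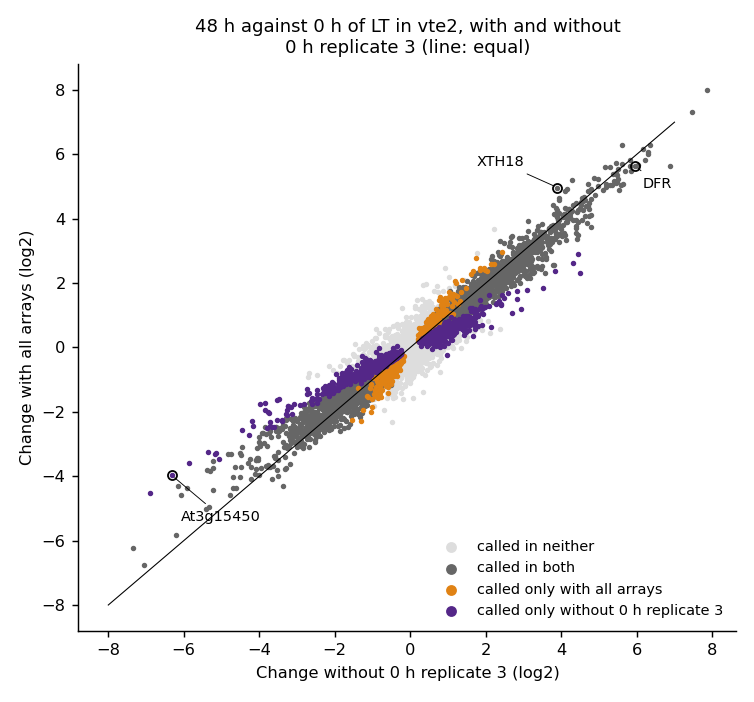
Change of each of 22810 probe sets in vte2 leaves with all arrays (vertical axis, 48 h minus 0 h of LT, log2) against the change without 0 h replicate 3 (horizontal axis, log2), with the line of equality and colours for the fits in which a probe set was called. The 7040 probe sets called in both lie along the line, and most of the 1402 called only without the array (purple) lie closer to 0 on the vertical axis, such as At3g15450 at -3.97 against -6.31.

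Most of the probe sets that changed in vte2 also changed in the wild type. Of the 7836 called in vte2, 5728 were called in Col in the same direction (73.1% of the calls in vte2 and 77.7% of those in Col) and 12 in the opposite one. The difference between the changes of the genotypes itself was called for 12 probe sets (0.0526%), 11 with a more positive change in vte2 (0.0482%) and 1 with a more negative one (0.00438%). An unadjusted p under 0.05 was found for 1683. Among the 8 of the 12 called probe sets that carry a gene name, At1g26450, a relative of beta-1,3-glucanases, had the largest difference. In vte2 it stood at 6.20, 6.25 and 6.69 at 48 h, against 3.55, 3.63 and 3.72 at 0 h. It rose by 2.75 (SE 0.17) in vte2 and changed by -0.08 in Col, a difference of 2.83 (SE 0.24, adjusted p = 0.000175). The serine carboxypeptidase At5g22860 rose by 1.63 (SE 0.15) in vte2 and changed by 0.12 in Col, and the tetraspanin TET5 rose by 0.72 (SE 0.12) in vte2 while its change in Col was -0.90. The pectate lyase At1g04680 had the negative difference, with a fall of 2.70 in vte2 and a change of -1.63 in Col (difference -1.07, SE 0.13, adjusted p = 0.00481). These genes were chosen by the study on the same 48 h arrays, so their differences are not independent of that choice. SAG29, PDF1.2b, EXPA9 and RALFL34 above were chosen in the same way. The count depended strongly on replicate 3, with 191 probe sets without that vte2 array at 0 h and 311 without the Col one.

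Some genes described above had larger changes in vte2 than in Col without passing this test. STZ changed by 3.03 in vte2 and by -0.10 in Col, a difference of 3.13 (SE 0.78, adjusted p = 0.294). GSTU25 changed by 1.61 in vte2 and by 0.02 in Col (adjusted p = 0.0674). The changes of the photosystem genes were more negative in vte2 for 9 of 9, but none of these differences was called in limma (4 with an unadjusted p under 0.05). For LHCB4.2 the change was -3.67 in vte2 and -2.87 in Col (adjusted p = 0.323 for the difference). LHCB4.2, At1g51400 and PSB27 were picked by the study from these arrays for low mutant levels relative to the wild type. The sign of their differences is therefore not independent of that choice, and the count of 9 includes them. The cold-regulated COR15B changed by 4.92 in vte2 and 4.55 in Col, DFR by 5.64 in vte2 and 5.32 in Col, and SAPX by 2.51 in vte2 and 2.20 in Col. All 7 named cold-regulated members had a more positive change in vte2, with a median of 3.20 against 2.23 in Col. The same held for all 7 calmodulin-like proteins, and all 8 nuclear-encoded NDH members had a more negative change in vte2. For flavonoid and anthocyanin genes 3 changes lay above and 2 below those in Col. No difference in these lists was called in limma.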

How the data were processed

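The authors deposited log2 expression values, which per the labels were made with RMA of the affy package, that is background adjustment, quantile normalization over all 18 arrays and summary of each probe set. Quantile normalization gives all arrays nearly the same distribution (medians of the 6 vte2 arrays 4.983 to 5.182), so changes are relative to the other transcripts. The values were used as deposited. A model with 6 group means was fitted to all 18 arrays with limma 3.58.1 in R 4.3.3, which gives 12 residual degrees of freedom; the default empirical Bayes test was used, with Benjamini-Hochberg adjustment over 22810 probe sets (64 of them controls) and a threshold of 0.05. The arrays at the later time point entered only the estimate of spread. SE is that of the fit, and precision is limited by having 3 arrays a group. The fitting steps were tested on simulated data with independent noise and no deviating array. That setting differs from these arrays, so the test does not cover the effect of 0 h replicate 3.

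A probe table gave 1 gene to 13513 probe sets and several to 503, and did not list 8794. Locus names came from RefSeq (TAIR10.1) for 13415 probe sets. Of several probe sets for a gene, the one with the highest mean was used. VTE2 and the unlisted genes are not reported here, so the mutated gene was not used to check the labels. Genes named were the 15 largest rises and falls with arrays that did not overlap and a call with and without 0 h replicate 3, the largest changes of each list, and up to 5 of the largest called differences from Col in each direction. The rule of the 15 largest was later also applied among genes with a symbol. Further genes were picked for 0 h replicate 3, namely the 5 each way that it shifted most. The 5 largest changes each way called only without it were picked too. Members and lists were chosen with earlier results of these data known. Replicate numbers did not pair the 48 h and 0 h arrays (correlations of same-numbered deviations 0.022, -0.023 and -0.024). Promoter motifs were not analysed here, and 1 gene family is not reported here.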

Additional observations from a re-analysis of the deposited data

Results flagged for a closer look

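The difference between the LT response of vte2 and that of Col was called for 12 probe sets, of which 8 carry a single gene name and the others are not named here. The differences (change in vte2 minus change in Col, log2) were 2.83 for At1g26450, 1.88 for At5g13880, 1.61 for TET5, 1.51 for At1g74055, 1.51 for At5g22860, 1.30 for WES1, a GH3 enzyme that conjugates hormones to amino acids, 1.19 for At5g47920 and -1.07 for At1g04680. The call of At5g13880 was lost without any one of 7 of the 12 arrays of both genotypes at 0 and 48 h (differences of 1.72 to 1.90 without them) and that of At5g22860 without vte2 48 h replicate 3, Col 48 h replicate 1 or Col 0 h replicate 1 (1.46 to 1.48).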

How the results depend on the processing

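The count of 7836 changed probe sets was 5737 at an adjusted p under 0.01, 3746 (2129 higher, 1617 lower) when a 2-fold change was also asked for, 5551 with only the vte2 arrays of both times in the fit, 7775 after cyclic loess, 8627 (3556 higher, 5071 lower) after median centring and 9636 without both replicate 3 arrays at 0 h, and it lay between 6621 and 8442 when each array in turn was left out. The replicate numbers did not pair the arrays of this comparison; with the replicate number as a block the count was 8083 over all arrays and 4345 with only the arrays compared, where fewer residual degrees of freedom remain. A replicate block within each time point, added after seeing the data, gave 9402.

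The 12 differences between vte2 and Col were 6 at an adjusted p under 0.01, 2 with only the arrays compared, 7 with the dimmest 40% removed, 117 with array weights, 25 with a replicate block within each time point and 763 without both replicate 3 arrays at 0 h. Leaving out each array gave 6 to 311, with 191 without vte2 0 h replicate 3, 311 without Col 0 h replicate 3 and 45 without Col 48 h replicate 3. The cause was not tested.

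Of 231 called genes followed through the alternatives, 160 kept their call under all of them and none changed direction. A call was lost in 293 of 3676 values, and of 299 genes not called, 108 were called under some alternative. Of 153 list counts recomputed, 18 moved by over 1.5 times. Promoter motifs could not be run.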
